A study of Rattus norvegicus with 6 samples.

Results

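The SLC25 family comprises membrane carriers, nearly all of the inner mitochondrial membrane. The genes described here were all those whose symbol begins with Slc25a and a number and which had a probe set naming a single gene, and the probe set with the highest mean stood for each gene. This gave 44 of the 18166 genes measured in the series. The reference annotation lists 53 protein-coding rat genes with such a symbol, and those without a single-gene probe set here included Slc25a5, Slc25a6, Slc25a43, Slc25a48 and Slc25a53. The inner membrane is closed to most solutes, and each carrier lets a small group of them through, usually in exchange for another: ADP for ATP, malate for 2-oxoglutarate, acylcarnitine for carnitine. The family therefore joins fatty acid oxidation, the citric acid cycle and the respiratory chain to the rest of the cell. In heart and brown fat, which burn much fat, the adenine nucleotide, phosphate and acylcarnitine carriers are abundant.

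The series holds 3 Hlirag and 3 diabetic samples, each on an Affymetrix Rat Gene 2.0 ST array. All rats were male Sprague–Dawley animals that entered at 5 weeks of age, ate a high-fat diet for 4 weeks and were then given streptozotocin, which kills insulin-producing cells, at 30 mg/kg. For the next 12 weeks Hlirag rats received 0.4 mg/kg/day of liraglutide, which activates the receptor of the hormone GLP-1, and diabetic rats received saline. The sample titles say only that the rats were treated with liraglutide, and the dose is that of the Hlirag group in the methods. The labels give an age of 17 weeks, which is younger than this course of diet and treatment would make the rats. There were 6 rats in each group, and it is not given whether arrays correspond to single animals, so the p-values may reflect technical spread alone. Levels are the deposited log2 values, listed for replicates 1, 2 and 3 in this order, and differences and log2 fold changes are those of Hlirag over diabetic. A gene met the criterion with an unadjusted p under 0.05 from limma and a fold change over 1.5, the thresholds of the study. Background was set at a level of 5.60, below which 95% of 68 olfactory receptor genes had their mean.

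The labelled tissue, cardiac muscle, was not borne out on every array. The sample titles begin with arota and the descriptions speak of adipose. Myh6, the cardiac myosin heavy chain, had log2 levels of 7.88, 3.81 and 4.19 in the Hlirag group and 9.16, 3.76 and 3.93 in the diabetic group, so only replicate 1 of each group lay above background. Of 8 cardiomyocyte markers, 5, 1 and 3 were above background on the Hlirag arrays and 7, 2 and 1 on the diabetic arrays, with summed linear levels of 2366, 1160 and 382 against 4169, 1529 and 1303. On Hlirag replicate 2 and diabetic replicate 3 the 1 marker above background was Pln, at 9.92 and 10.13, which gave most of the sum there. Nppa, the atrial natriuretic peptide gene, was below background on all 6 arrays. The summed linear level of 4 smooth muscle markers, all above background on every array, was 12170, 7958 and 3106 on the Hlirag arrays and 7591, 2589 and 11558 on the diabetic arrays. All 7 adipocyte markers, among them Adipoq at 11.96 to 12.31, were above background on all 6 arrays. The summed linear level of 7 skeletal muscle markers was 298 to 359 on the Hlirag arrays and 12695, 27084 and 333 on the diabetic arrays. That of 7 nerve markers was 186 to 267 on the Hlirag arrays and 1978, 13844 and 289 on the diabetic arrays. Ucp1, the uncoupling protein of brown fat and itself a carrier of the same fold, had levels of 10.75, 12.75 and 12.03 in the Hlirag group and 10.92, 7.35 and 7.05 in the diabetic group. Hlirag replicate 3 had the narrowest spread of levels over all genes, an SD of 1.52 against 1.84 to 1.97 on the other arrays. In bulk RNA, fewer cells of a type and less RNA per cell cannot be told apart.

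At the criterion, 5 of the 44 carriers were higher in the Hlirag group (11.4% of the family), against a background of 1.62% of all genes, and 1 was lower (2.27%), against 2.16% of all genes. In either direction this was 13.6% of the family and 3.78% of all genes. The higher carriers were Slc25a35, Slc25a20, Slc25a29, Slc25a41 and Slc25a52, and the lower one was Slc25a12. No carrier passed an adjusted p under 0.05 over all genes, where the smallest adjusted p by limma was 0.780, and no other gene of the series did, while 752 genes had an unadjusted p under 0.05. The family did not move one way: 22 carriers (50%) had a log2 fold change above 0, against 50.2% of all genes, and 22 below 0. Its median was -0.057, against 0.0021 over all genes. In 7 carriers every Hlirag array lay above every diabetic array, and in 1 every Hlirag array lay below, 15.9% and 2.27% of the family, where 6.42% and 4.69% of all genes did so. Both together came to 11.1% of all genes. The mean of 28 carriers was above background, 63.6% of the family against 52.6% of all genes. Of the 44, 26 were above background on all 6 arrays, 11 on some and 7 on none. Of the 5 higher carriers, Slc25a35 and Slc25a20 were well above background, and the 3 others had both group means below it. The median level of the olfactory receptor genes was 3.27, 3.72 and 4.41 on the Hlirag arrays. On the diabetic arrays it was 3.29, 3.47 and 3.69. Whether the 3 dim carriers moved with this floor was not tested.

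**Figure D1:**
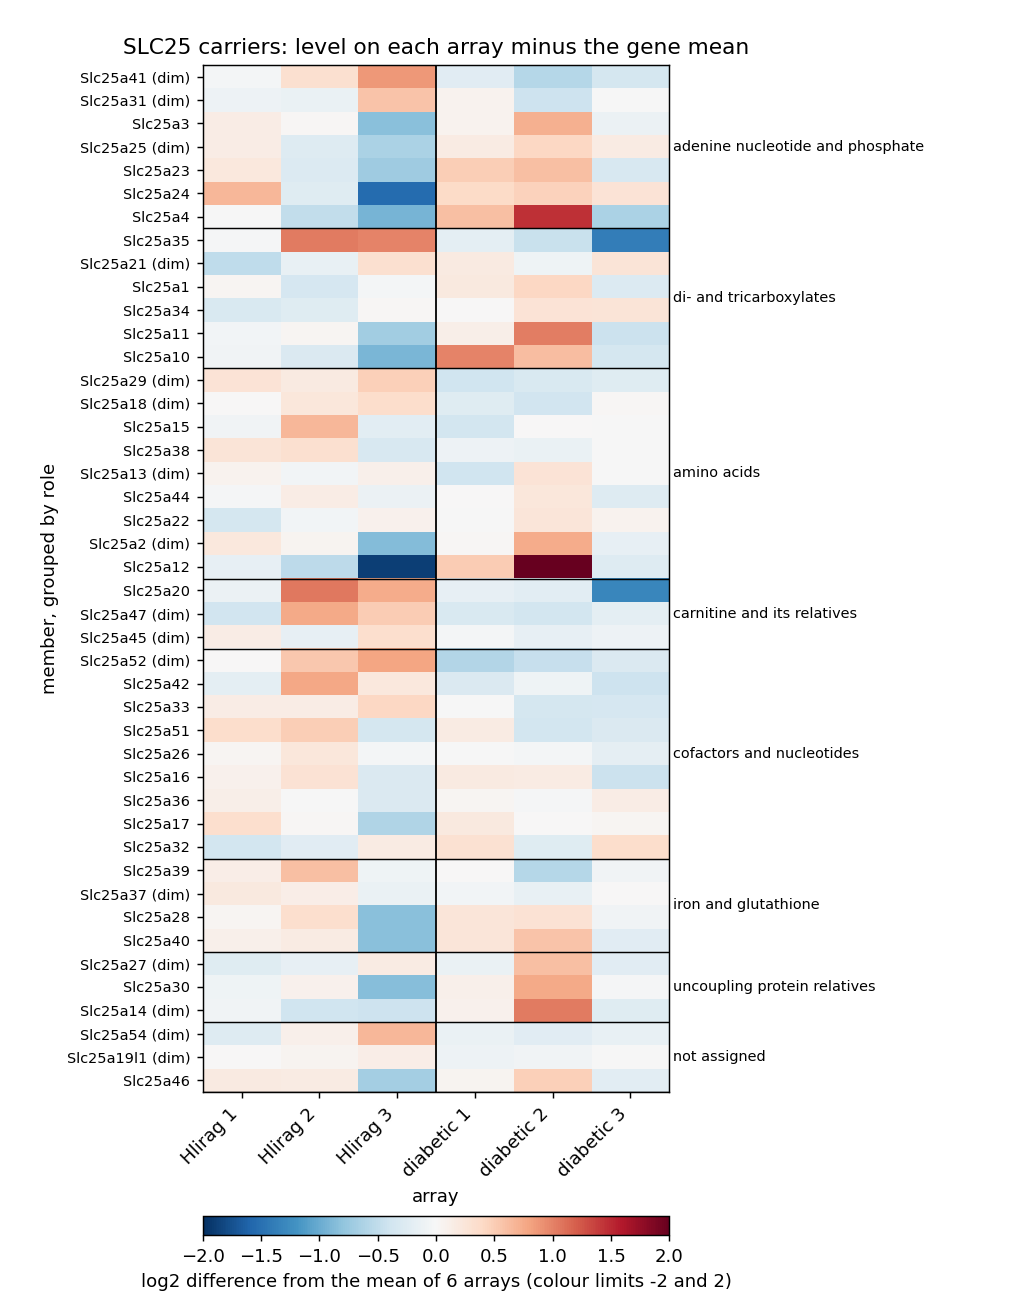
Log2 level of each of the 44 SLC25 carriers on each array minus that gene's mean over the 6 arrays, with genes in rows grouped by what they carry and arrays in columns, Hlirag on the left. Genes marked dim have a mean at or below background. Diabetic replicate 2 held the highest level of 17 carriers and Hlirag replicate 3 the lowest level of 17, of which 14 had a mean above background. Hlirag replicate 3 also held the highest level of 10 carriers, of which 1 had a mean above background.

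The promoters of the 2 brighter carriers that were higher in the Hlirag group, and of 2 carriers with high levels on diabetic replicate 2, are shown for comparison. Each runs from 250 bases before to 50 bases after the gene's start in the rat genome build GRCr8 (RefSeq), read 5′ to 3′ on the gene's strand. Slc25a35 lies at chr10:54172115-54172414 (plus strand), Slc25a20 at chr8:118243323-118243622 (plus strand), Slc25a12 at chr3:76599487-76599786 (minus strand) and Slc25a4 at chr16:52805271-52805570 (plus strand). Capitals mark matches, on either strand, to the CCAAT box (CCAAT), the GC box (GGGCGG) and an ETS site (ACTTCCGG).
Slc25a35: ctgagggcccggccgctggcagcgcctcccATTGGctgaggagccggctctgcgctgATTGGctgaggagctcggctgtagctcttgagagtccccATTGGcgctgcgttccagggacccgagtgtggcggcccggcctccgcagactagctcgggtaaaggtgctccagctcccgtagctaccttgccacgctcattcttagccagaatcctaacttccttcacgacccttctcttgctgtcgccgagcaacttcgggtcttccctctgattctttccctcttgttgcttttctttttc
Slc25a20: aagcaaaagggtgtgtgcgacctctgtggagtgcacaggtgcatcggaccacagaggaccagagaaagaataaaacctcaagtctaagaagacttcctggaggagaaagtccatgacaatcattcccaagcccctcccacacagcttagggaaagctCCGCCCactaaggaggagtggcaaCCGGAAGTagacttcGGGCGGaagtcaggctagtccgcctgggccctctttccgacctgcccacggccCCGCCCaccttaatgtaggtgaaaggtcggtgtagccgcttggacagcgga
Slc25a12: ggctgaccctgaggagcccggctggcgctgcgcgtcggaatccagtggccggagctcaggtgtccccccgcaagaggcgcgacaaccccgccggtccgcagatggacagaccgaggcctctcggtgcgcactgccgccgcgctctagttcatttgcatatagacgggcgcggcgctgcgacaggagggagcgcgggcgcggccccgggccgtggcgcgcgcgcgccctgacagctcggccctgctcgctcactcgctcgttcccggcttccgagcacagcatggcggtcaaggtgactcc
Slc25a4: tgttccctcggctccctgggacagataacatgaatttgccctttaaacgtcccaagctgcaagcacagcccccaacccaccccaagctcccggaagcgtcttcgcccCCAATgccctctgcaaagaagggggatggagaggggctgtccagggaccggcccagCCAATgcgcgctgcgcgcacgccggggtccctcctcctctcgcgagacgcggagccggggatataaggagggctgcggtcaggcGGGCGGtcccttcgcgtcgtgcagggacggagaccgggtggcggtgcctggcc
The Slc25a35 window held 3 CCAAT boxes and no GC box. That of Slc25a20 held 3 GC boxes and 1 ETS site, that of Slc25a4 held 2 CCAAT boxes and 1 GC box, and that of Slc25a12 held none of these letters. Slc25a35 and Slc25a20 shared none of these matches, while the window of Slc25a29, higher but dim, held both GC and CCAAT boxes. A promoter was found for 37 of the 44 carriers. A GC box stood in 25 of them (67.6%, against 33.1% of 33469 promoters of all genes) and a CCAAT box in 20 (54.1% against 37.5%). The ETS site stood in those of Slc25a20, Slc25a17 and Slc25a54 (8.11% against 3.81%). The cAMP response element TGACGTCA stood in those of Slc25a25 and Slc25a33 (5.41% against 1.83%), and the site of nuclear respiratory factor 1 in those of Slc25a31 and Slc25a51 (5.41% against 4.25%). The direct repeat of the peroxisome proliferator response element and the estrogen-related receptor element TCAAGGTCA were in no carrier promoter of this window, and in 0.0538% and 0.433% of all promoters. All motifs were searched on both strands, and none contains the letters of another. Carrier promoters were richer in G and C than promoters of all genes, with a median of 60.3% against 51.7%.

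Fatty acids enter the matrix as acylcarnitines, which Slc25a20 exchanges for free carnitine. Its level was 8.88, 10.05 and 9.73 in the Hlirag group and 8.83, 8.79 and 7.69 in the diabetic group. The groups did not overlap, but Hlirag replicate 1 lay next to diabetic replicates 1 and 2. Slc25a20 was higher in the Hlirag group by a log2 fold change of 1.12 (SE 0.42, 2.17-fold, unadjusted p = 0.0295, adjusted p = 0.780, limma). Leaving out Hlirag replicate 2, Hlirag replicate 3 or diabetic replicate 3, it no longer met the criterion, with a log2 fold change of 0.87, 1.03 and 0.75. Nor did it meet the criterion in the methods' test of the study (one-way ANOVA), with median centring (0.98), with array weights (0.65) or with dim values raised to background. Without diabetic replicates 1 and 2, which are high in skeletal muscle markers, the log2 fold change was 1.87. Here and below, that fit left diabetic replicate 3 as the only diabetic array, and Slc25a20 was lowest there.

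The enzymes on either side of the carrier differed among themselves in direction. Cpt2, which releases acyl-CoA in the matrix, had levels of 8.45, 9.64 and 9.45 in the Hlirag group and 8.37, 8.55 and 7.66 in the diabetic group and was higher by 0.99 (SE 0.39, unadjusted p = 0.0349, limma). Cpt1b, the muscle and brown fat form of the outer membrane enzyme that makes acylcarnitines, was at 9.93, 11.29 and 11.53 in the Hlirag group and 9.97, 10.63 and 9.46 in the diabetic group, and its difference of 0.90 (SE 0.48, unadjusted p = 0.0981, limma) did not meet the criterion. Cpt1a, the liver form, was lower by a log2 fold change of -0.95 (SE 0.38, unadjusted p = 0.0373, limma), with 7.62, 7.06 and 6.22 in the Hlirag group and 7.57, 8.01 and 8.16 in the diabetic group. Crat, which makes and splits short acylcarnitines, differed by 0.052. Of the 2 other carriers of the carnitine group measured, Slc25a47 differed by 0.58 and Slc25a45 by 0.21. Neither met the criterion, and both had means below background.

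Of the 6 measured carriers of di- and tricarboxylates and their kin, 1 was higher and none lower, where 1.62% and 2.16% of all genes were. The other 5 had log2 fold changes below 0, where 50.2% of all genes were above 0. The higher carrier was Slc25a35, whose substrate is not settled. Its levels were 8.01, 9.07 and 9.02 in the Hlirag group and 7.82, 7.58 and 6.64 in the diabetic group. All Hlirag arrays lay above all diabetic arrays, and again replicate 1 of each group lay closest. The log2 fold change was 1.35 (SE 0.41, 2.55-fold, unadjusted p = 0.0121, adjusted p = 0.780, limma). It met the criterion on leaving out each array in turn, with values of 0.99 to 1.69. It was 2.06 against diabetic replicate 3 alone, where Slc25a35 was lowest. Slc25a35 missed the criterion in the methods' test, and array weights gave a log2 fold change of 0.79, which missed it too. Slc25a34, its nearest relative, had 5.61, 5.67 and 5.94 in the Hlirag group and 5.92, 6.18 and 6.16 in the diabetic group, a log2 fold change of -0.35.

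The other carriers of this kind pointed down without meeting the criterion. Slc25a11, which exchanges 2-oxoglutarate for malate and was the brightest of them, had levels of 9.37, 9.46 and 8.73 in the Hlirag group and 9.55, 10.46 and 9.005 in the diabetic group. Diabetic replicate 2 stood alone at the top, and the difference of -0.48 (SE 0.40, unadjusted p = 0.267, adjusted p = 0.780, limma) turned to 0.19 without diabetic replicates 1 and 2. Slc25a10, the malate and phosphate exchanger, had 7.79, 7.58 and 6.94 in the Hlirag group and 8.85, 8.48 and 7.51 in the diabetic group, a difference of -0.85 (SE 0.40, unadjusted p = 0.0657, limma). Slc25a1, which exports citrate for fatty acid synthesis, differed by -0.23, and Slc25a21, which carries oxoadipate, by -0.23 at a level below background.

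**Figure D2:**
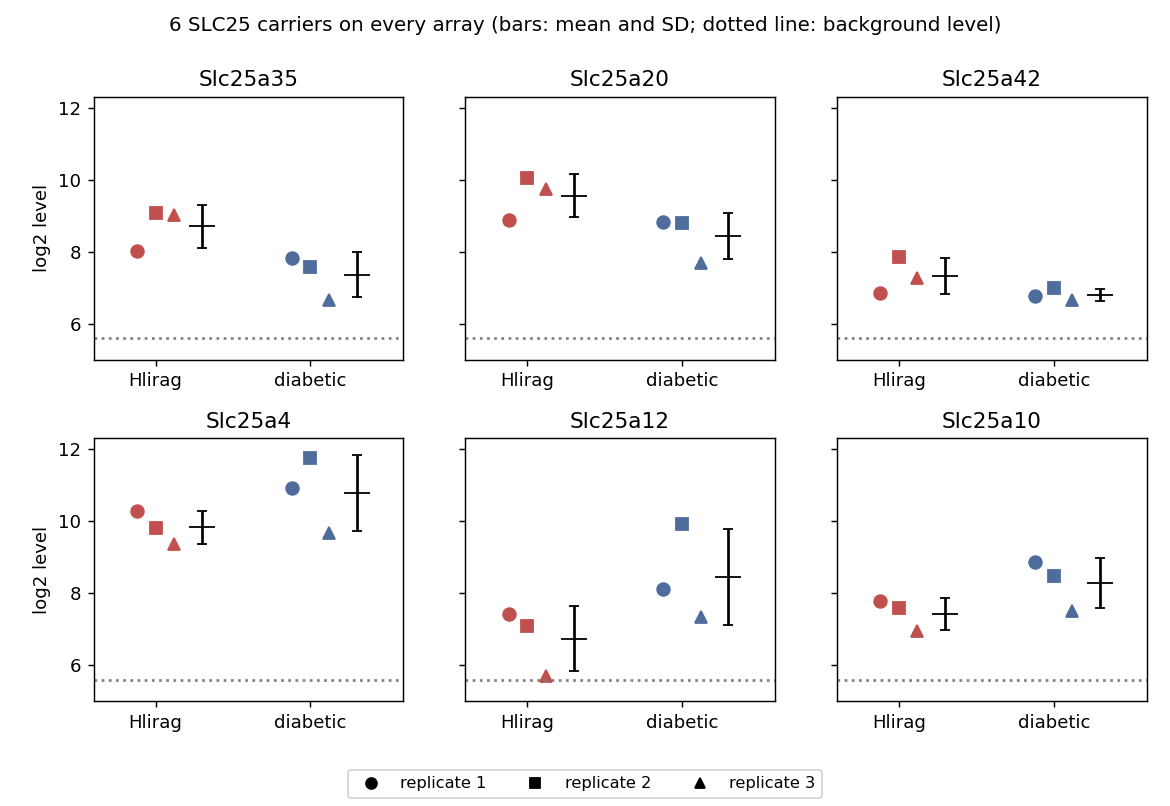
Log2 level of 6 carriers on every array, Hlirag on the left of each panel, with each replicate as its own symbol, the group mean and SD beside it and the background level of 5.60 as a dotted line. Slc25a35 and Slc25a20 did not overlap between the groups, while Slc25a4 and Slc25a12 had their highest level, 11.76 and 9.92, on diabetic replicate 2.

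The strongest signal of the family, which also depends on the probes, was that of Slc25a4, the heart and muscle form of the ADP/ATP exchanger. Its levels were 10.29, 9.82 and 9.38 in the Hlirag group and 10.91, 11.76 and 9.67 in the diabetic group. Diabetic replicates 1 and 2 were above all Hlirag arrays, and diabetic replicate 3 was below 2 of them. The difference of -0.95 (SE 0.52, unadjusted p = 0.106, adjusted p = 0.780, limma) did not meet the criterion and was 0.16 without diabetic replicates 1 and 2. It did meet it without diabetic replicate 3, at -1.51, and with the mean of both its probe sets, at -0.87. The carrier that brings in phosphate for ATP synthesis, Slc25a3, had 9.05, 8.92 and 8.07 in the Hlirag group and 8.98, 9.60 and 8.78 in the diabetic group, a difference of -0.44 (SE 0.35, unadjusted p = 0.245, limma). Slc25a31, the germ cell form of the ADP/ATP exchanger, was below background on all arrays and differed by 0.23.

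Of the 7 measured carriers of adenine nucleotides and phosphate, 1 was higher and none lower, where 1.62% and 2.16% of all genes were. The median was -0.50, against 0.0021 over all genes. The higher carrier, Slc25a41, which carries ATP-Mg and phosphate, was below background on every array, at 4.52, 4.89 and 5.44 in the Hlirag group and 4.33, 3.99 and 4.22 in the diabetic group. Its log2 fold change was 0.77 (SE 0.28, 1.70-fold, unadjusted p = 0.0286, adjusted p = 0.780, limma). It met the criterion in 1 of 6 fits that left out an array, the one without Hlirag replicate 1, over a range of differences of 0.52 to 0.98. Slc25a25, a calcium-regulated carrier of the same kind, lay below the diabetic arrays on every Hlirag array, at 5.48, 5.07 and 4.71 against 5.50, 5.74 and 5.50. Its difference was -0.50 (SE 0.26, unadjusted p = 0.0939, adjusted p = 0.780, limma), with both group means below background. Slc25a24 had 7.17, 6.27 and 4.96 in the Hlirag group and 6.89, 6.96 and 6.78 in the diabetic group, a difference of -0.75, and Hlirag replicate 3 was the lowest array. Slc25a23 differed by -0.51.

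Slc25a12, known as aralar, exchanges aspartate for glutamate in the malate-aspartate shuttle of heart, skeletal muscle and neurons. Its levels were 7.43, 7.08 and 5.71 in the Hlirag group and 8.11, 9.92 and 7.33 in the diabetic group. Diabetic replicate 2 stood far above the rest and Hlirag replicate 3 far below, and Hlirag replicate 1 lay above diabetic replicate 3. Slc25a12 was lower in the Hlirag group by a log2 fold change of -1.71 (SE 0.70, 3.28-fold, unadjusted p = 0.0417, adjusted p = 0.780, limma). It met the criterion in 2 of 6 fits that left out an array, which dropped Hlirag replicate 1 or diabetic replicate 3. The difference was -1.88 and -1.20 on dropping the second and the third Hlirag array, and -1.89 and -0.98 on dropping the first and the second diabetic array. It was -0.59 without diabetic replicates 1 and 2, the arrays high in skeletal muscle and nerve markers.

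Slc25a13 or citrin, the form of liver and many other tissues, differed by 0.085 at levels near background. None of the 4 shuttle enzymes met the criterion. Got1, the cytosolic transaminase, was at 7.88, 8.12 and 8.40 in the Hlirag group and 8.66, 10.16 and 7.19 in the diabetic group. Got2, Mdh1 and Mdh2 differed by -0.42, -0.026 and 0.58. In Got1 and Got2, as in Slc25a12, diabetic replicate 2 had the highest level.

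Of the 9 measured amino acid carriers, 1 was higher and 1 lower, where 1.62% and 2.16% of all genes were. A log2 fold change above 0 was seen in 6, against 50.2% of all genes. Slc25a29, which carries basic amino acids, had 5.46, 5.37 and 5.67 in the Hlirag group and 4.79, 4.89 and 4.95 in the diabetic group. Its log2 fold change was 0.62 (SE 0.21, 1.54-fold, unadjusted p = 0.0186, adjusted p = 0.780, limma). Its arrays did not overlap, but both means were below background, and the criterion was not met without Hlirag replicate 3 or without diabetic replicate 1, with differences of 0.54 and 0.58. The glutamate carriers Slc25a22 and Slc25a18 differed by -0.21 and 0.39, and the ornithine carriers Slc25a15 and Slc25a2 by 0.25 and -0.40. Slc25a38, which brings glycine in for haem synthesis, differed by 0.16, and Slc25a44, which carries branched-chain amino acids in brown fat, by 0.0068 (95% interval half-width 0.53).

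**Figure D3:**
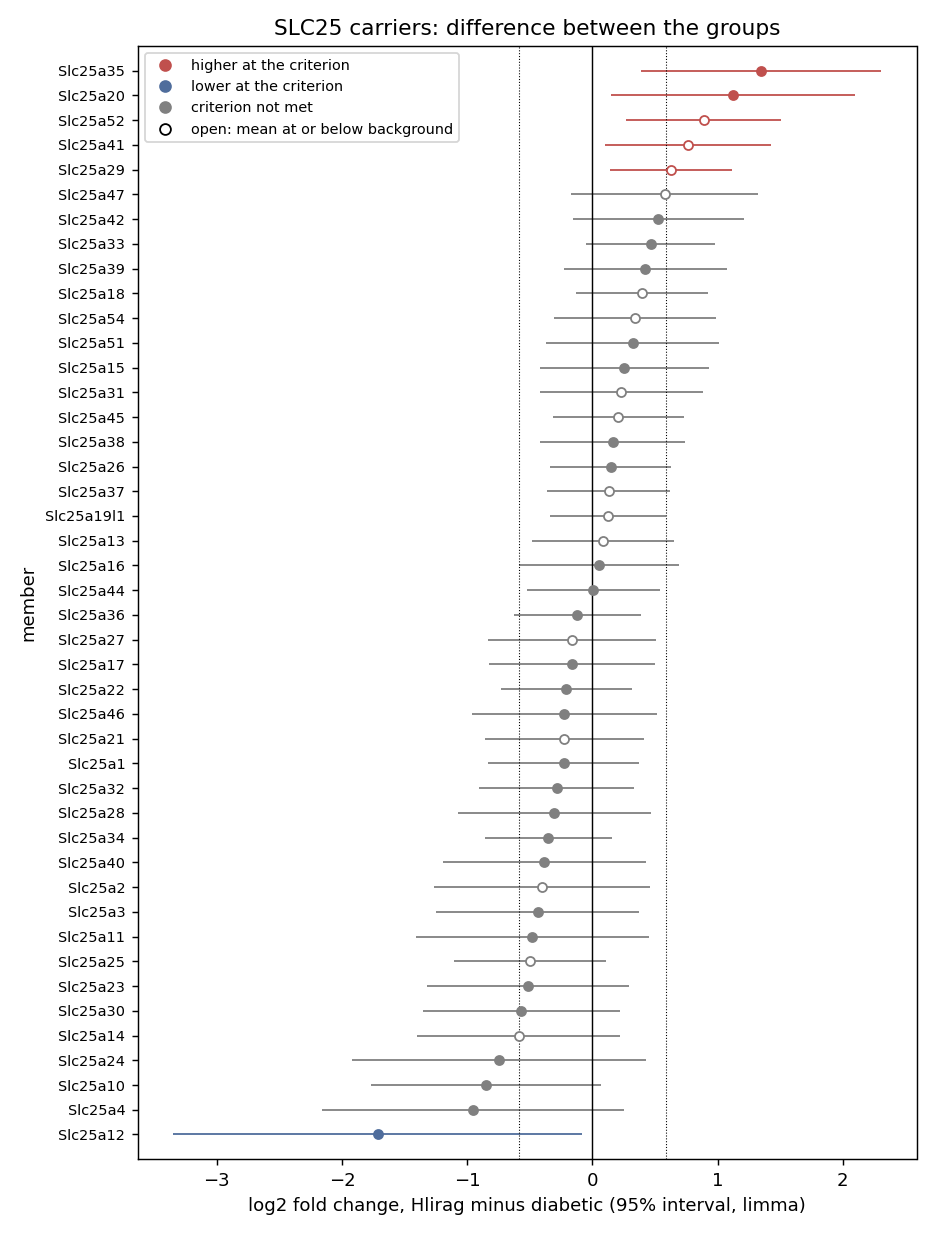
Log2 fold change of each of the 44 carriers, Hlirag minus diabetic, with its 95% interval from limma. Dotted lines mark a fold change of 1.5, and open points mark carriers whose mean was at or below background. Of the 5 carriers higher at the criterion, Slc25a35 and Slc25a20 are filled and the other 3 are open.

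Of the 9 measured carriers of cofactors and nucleotides, 1 was higher and none lower, where 1.62% and 2.16% of all genes were. Slc25a52, a relative of the NAD+ carrier Slc25a51, had the smallest unadjusted p of the family (0.0109, adjusted p = 0.780, limma), yet it was below background on every array, at 4.05, 4.59 and 4.84 in the Hlirag group and 3.47, 3.59 and 3.76 in the diabetic group. Its log2 fold change was 0.89 (SE 0.27, 1.85-fold). Slc25a51 itself differed by 0.32. Slc25a33, a pyrimidine nucleotide carrier, had 6.82, 6.82 and 7.08 in the Hlirag group and 6.66, 6.33 and 6.33 in the diabetic group. The groups did not overlap, and the difference of 0.46 (SE 0.22, unadjusted p = 0.0701, adjusted p = 0.780, limma) did not meet the criterion.

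Slc25a42, which brings coenzyme A into the matrix, was at 6.86, 7.84 and 7.27 in the Hlirag group and 6.76, 6.98 and 6.64 in the diabetic group, a difference of 0.53 (SE 0.29, unadjusted p = 0.111, limma). As in Slc25a20 and Slc25a35, Hlirag replicates 2 and 3 were above all diabetic arrays. Slc25a32, the folate and FAD carrier and the brightest of these, had 7.45, 7.59 and 7.98 in the Hlirag group and 8.13, 7.58 and 8.17 in the diabetic group. The groups overlapped, and the difference was -0.29 (SE 0.27, unadjusted p = 0.317, adjusted p = 0.780, limma). Slc25a16, which is linked to coenzyme A, Slc25a26, which carries S-adenosylmethionine, Slc25a36, a second pyrimidine nucleotide carrier, and Slc25a17, the peroxisomal member, differed by 0.053, 0.15, -0.12 and -0.17.

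None of the carriers of iron and glutathione met the criterion. Slc25a39, which imports glutathione, had 7.13, 7.60 and 6.91 in the Hlirag group and 7.01, 6.43 and 6.93 in the diabetic group, a difference of 0.42 (SE 0.28, unadjusted p = 0.170, adjusted p = 0.780, limma) with overlap. Its relative Slc25a40 differed by -0.38, and the iron carriers Slc25a37 and Slc25a28, the mitoferrins, by 0.13 and -0.30. The 3 relatives of the uncoupling proteins, Slc25a30, Slc25a14 and Slc25a27, differed by -0.57, -0.59 and -0.16. The brightest of them, Slc25a30, had 6.72, 6.90 and 5.95 in the Hlirag group and 6.91, 7.57 and 6.79 in the diabetic group (SE 0.34, unadjusted p = 0.133, adjusted p = 0.780, limma). Slc25a46, an outer membrane protein of mitochondrial dynamics, had 8.05, 8.04 and 7.19 in the Hlirag group and 7.93, 8.35 and 7.67 in the diabetic group, a difference of -0.22 (SE 0.32, unadjusted p = 0.506, adjusted p = 0.821, limma). Slc25a54 differed by 0.34. Slc25a19l1 did not overlap between the groups, at 2.38, 2.44 and 2.51 in the Hlirag group and 2.28, 2.32 and 2.37 in the diabetic group, far below background (log2 fold change 0.12, SE 0.20, unadjusted p = 0.555, adjusted p = 0.836, limma).

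Carriers of 1 kind were compared in 13 pairs of close relatives, by the difference in level between the 2 genes on each array. The exact two-sided permutation test of 3 against 3 arrays cannot go below p = 0.1, and adjusted over the pairs no p was below 0.371. In 3 pairs the smallest exact p of 0.1 was reached. The signal of Slc25a35 exceeded that of Slc25a34 by 2.40, 3.40 and 3.08 on the Hlirag arrays and by 1.90, 1.401 and 0.48 on the diabetic arrays, so their changes differed by 1.70 (SE 0.51). Slc25a34 was above background on all 6 arrays but close to it, at 5.61 to 6.18. The changes of Slc25a22 and Slc25a18 differed by -0.60 (SE 0.17), with Slc25a18 above background on only 1 of 6 arrays, and those of Slc25a33 and Slc25a36 by 0.58 (SE 0.24). Those of Slc25a12 and Slc25a13 differed by -1.80 (SE 0.87, exact two-sided permutation p = 0.2), with Slc25a13 also above background on only 1 array.

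Members of the carrier fold under other symbols split as well. Mtch2, an outer membrane relative, had levels of 10.96, 11.71 and 11.62 in the Hlirag group and 10.79, 10.92 and 10.30 in the diabetic group, without overlap, and was higher by 0.76 (SE 0.29, unadjusted p = 0.0333, limma). Ucp3, the uncoupling protein of muscle and brown fat, was at 6.78, 7.76 and 7.50 in the Hlirag group and 8.56, 10.02 and 7.48 in the diabetic group, a difference of -1.34 (SE 0.61, unadjusted p = 0.0598, limma). Mtch1 and Ucp2 differed by 0.18 and -0.44. Over 7 lists of transport partners, 37 of 40 genes were measured. At the criterion 3 of them, Ucp1, Mtch2 and Cpt2, were higher and 1, Cpt1a, was lower, where 1.62% and 2.16% of all genes were. None of the partners met the criterion in the methods' test or with dim values raised to background, and none was higher with array weights.

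The carriers supply the respiratory chain. Of its 68 genes, 22 were higher at the criterion and 1 was lower, where 1.62% and 2.16% of all genes were. A log2 fold change above 0 was seen in 63 of the 68, against 50.2% of all genes. The median log2 fold change was 0.57, against 0.0021 over all genes. The median level of the list was 8.84, 9.51 and 9.13 in the Hlirag group and 8.87, 8.81 and 8.30 in the diabetic group. Slc25a35 and Slc25a20 were likewise highest on Hlirag replicate 2 and lowest on diabetic replicate 3. The summed linear level of 7 brown fat markers was 8111, 16121 and 12599 on the Hlirag arrays and 8870, 4158 and 3841 on the diabetic arrays. Ucp1 and Cidea gave most of these sums and were higher at the criterion, as was Cox8b, while Ppargc1a (-0.10) and Zic1 (-0.66) had differences below 0. Of the 7 markers, 4, 4 and 5 were above background on the Hlirag arrays and 5, 4 and 4 on the diabetic arrays. The 2 carriers were close to equal on replicate 1 of each group, where the brown fat sum was also close. The part of brown fat markers in the result was not tested, and all 7 adipocyte markers, whose sum was 17144 to 18812 on the Hlirag arrays and 14898 to 20501 on the diabetic arrays, missed the criterion. Relative to the respiratory chain, with each array centred on the median of that list, no carrier was higher, against 0.105% of all genes, and 10 of 44 were lower, 22.7% against 15.2% of all genes. In that setting Slc25a35 and Slc25a20 still had log2 fold changes of 0.85 and 0.62, neither at the criterion, and the median of all genes moved to -0.50.

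Slc25a12 and Slc25a4 had their 2 highest levels on diabetic replicates 1 and 2, the arrays with the highest sums of skeletal muscle markers. So did Slc25a10, Slc25a1, Slc25a11, Slc25a14, Slc25a23, Slc25a30 and Slc25a40. Nerve markers were high on the same arrays. Whether the lower levels in the Hlirag group go with these markers was not tested beyond leaving those arrays out. Against diabetic replicate 3 alone, the difference was -0.59 for Slc25a12 and 0.16 for the brighter probe set of Slc25a4. In the dimmer probe set of Slc25a4, diabetic replicate 3 (5.52) was above every Hlirag array (5.41, 4.72 and 4.91), all below background.

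**Figure D4:**
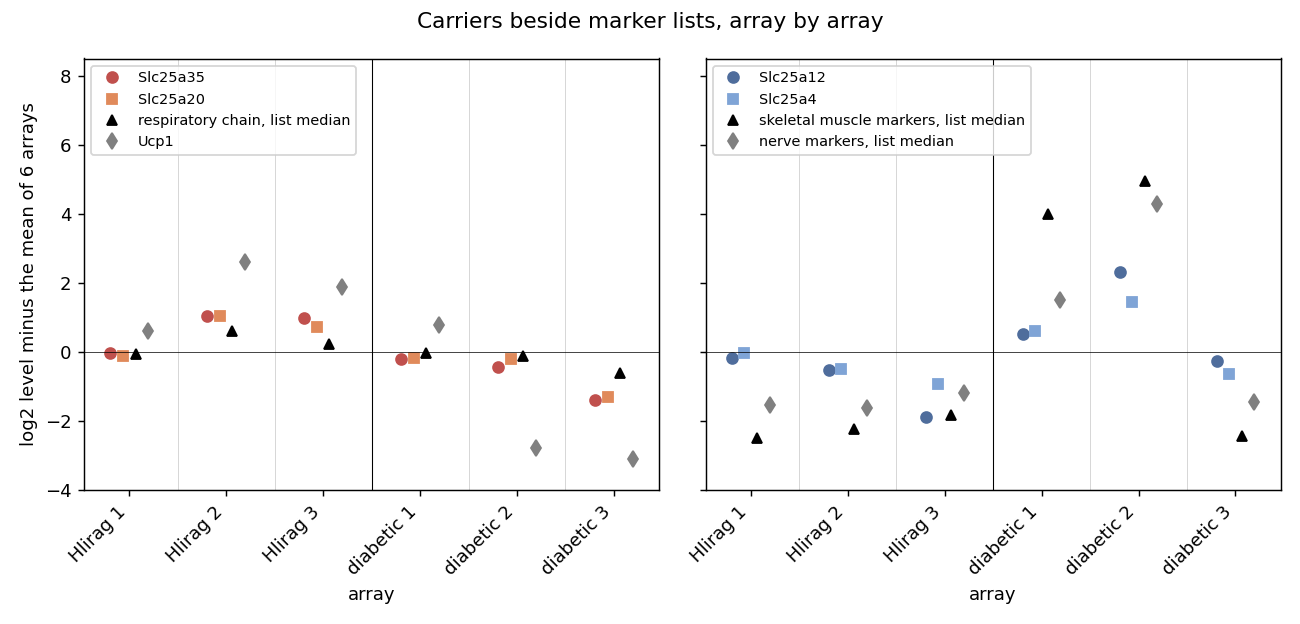
Log2 level on each array minus the mean of the 6 arrays, Hlirag on the left, for Slc25a35 and Slc25a20 beside Ucp1 and the median of the respiratory chain list (left), and for Slc25a12 and Slc25a4 beside the medians of the skeletal muscle and nerve marker lists (right). Slc25a35 and Slc25a20 were highest on Hlirag replicate 2, and Slc25a12 and Slc25a4 on diabetic replicate 2.

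**Figure D5:**
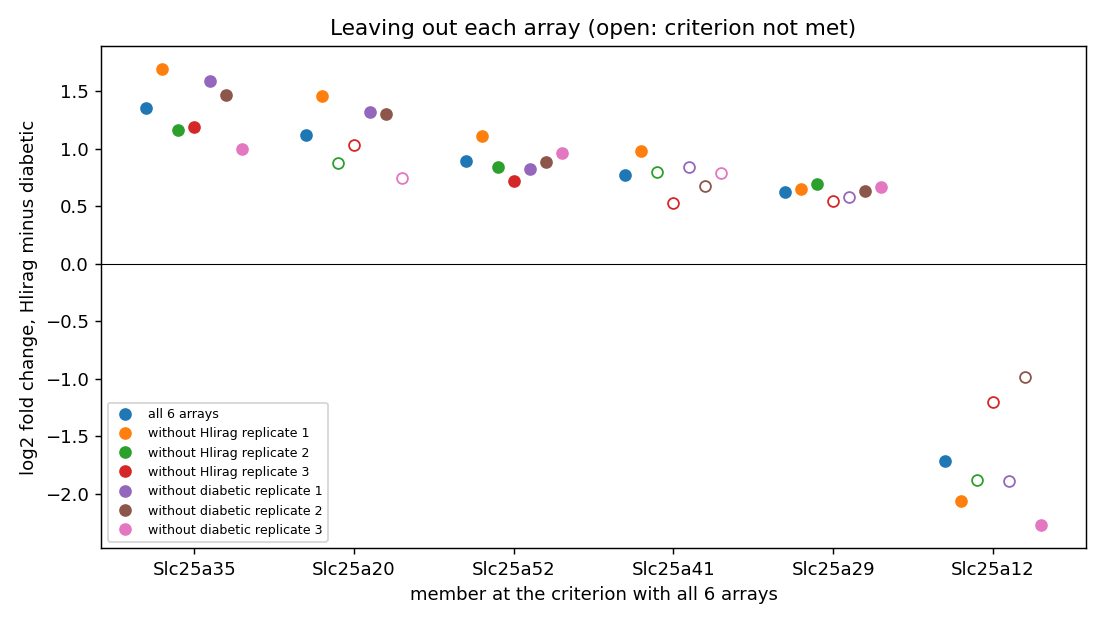
Log2 fold change, Hlirag minus diabetic, of the 6 carriers at the criterion with all 6 arrays and without each array in turn, with open points where the criterion was not met. Slc25a35 and Slc25a52 met it in all 6 fits that left out an array, Slc25a20 in 3, Slc25a29 in 4, Slc25a12 in 2 and Slc25a41 in 1.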

How the data were processed

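The authors scanned 3 Hlirag and 3 diabetic Affymetrix Rat Gene 2.0 ST arrays and used Expression Console 1.4.1. The deposited values of 36685 probe sets range as log2 levels do. The summarisation and normalization are not given in the sources used here, and array medians ran from 4.94 to 5.39, so the centring stays unknown. Of the probe sets, 18511 named 1 gene, 575 several and 17599 none, and 291 genes had more than 1. All 44 carriers matched the reference gene table by gene ID. Slc25a4 had 2 probe sets. limma 3.58.1 in R 4.3.3 (lmFit and eBayes, group only) was fitted to all 18166 genes and tested on simulated data, with Benjamini-Hochberg adjustment over all of them. Promoters came from RefSeq. The number of arrays limits the precision. Every measured carrier is named, with full statistics for those at the criterion, those without overlap and the brightest of each role. The carriers, lists and tests were chosen with earlier results of these data known. Alternatives covered the test, normalization, centring, dim genes, variance model, array weights, probe set rule, replicate block and arrays left out. Tables and figures used numpy 2.4.6, pandas 2.3.3 and matplotlib 3.10.9.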

Additional observations from a re-analysis of the deposited data

How the results depend on the processing

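With all arrays, 687 genes, 5 higher carriers, 1 lower carrier and a carrier median of -0.057 were found. The one-way ANOVA of the study's methods gave 236 genes, 2 higher carriers (Slc25a29 and Slc25a52) and 0 lower, with 690 genes at an unadjusted p under 0.05 and none at an adjusted p under 0.05. Quantile normalization gave 5 higher carriers, with Slc25a33 in place of Slc25a29, and 0 lower. Centring each array on its median gave 3 higher and 0 lower carriers and a median of -0.20, and the median of all genes moved to -0.14. Centring on the respiratory chain gave 2779 genes, 0 higher and 10 lower carriers and a median of -0.56, and the median of all genes moved to -0.50. After that shift of all genes, 405 had an adjusted p under 0.05, and the smallest adjusted p of a carrier was 0.00082 (limma). At the criterion 294 genes were higher and 393 lower, against 128 and 383 with median centring and 19 and 2760 with respiratory chain centring. Genes above background alone gave 448 genes, 2 higher carriers, 1 lower carrier and a median of -0.21 over the 28 carriers left. The median of all genes kept was -0.19. Raising dim values to background gave 181 genes, 1 higher carrier (Slc25a35) and 0 lower. Array weights, whose fit did not converge, gave 2 higher carriers (Slc25a29 and Slc25a52) and 1 lower, Slc25a10 in place of Slc25a12. Averaging all probe sets of a gene gave 2 lower carriers (Slc25a4 and Slc25a12). Transport partners ranged over 0 to 6 higher and 0 to 9 lower under all settings. The 6 higher were found without Hlirag replicate 1, where 1047 of the 18166 genes were higher. The 9 lower were found with respiratory chain centring, where 2760 genes were lower. The intensity trend and the fit on all probe sets kept 5 and 1.

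Leaving out each array gave 226 to 2018 genes, 2 to 7 higher and 0 to 5 lower carriers and a median of -0.13 to 0.082. Without Hlirag replicate 1 there were 2018 genes and 7 higher carriers, without diabetic replicate 3 1062 genes and 5 lower carriers, and without Hlirag replicate 2 226 genes. An adjusted p under 0.05 (limma) was reached by 29 genes without diabetic replicate 3 and by 3 without diabetic replicate 2. No carrier was among them. Without diabetic replicates 1 and 2 there were 286 genes, 2 higher (Slc25a35 and Slc25a20) and 0 lower carriers and a median of 0.10. The lone diabetic array was then assumed to vary like the Hlirag arrays. Without the first replicate of both groups, chosen after seeing the data, there were 2 lower carriers. The replicate number as a block gave 1117 genes and 3 lower carriers. Deviations of same-numbered arrays correlated at 0.32, 0.040 and 0.15, and Hlirag replicate 2 correlated best with diabetic replicate 1 (0.16). No label pairs the arrays, and they were not treated as pairs. The lower carriers under the block were Slc25a4, Slc25a10 and Slc25a12.

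Of the 44 carriers, the log2 fold change changed sign in 7 without diabetic replicates 1 and 2, in 5 with median centring and in 15 with respiratory chain centring. The centrings shift all genes by about the medians given above, so small positive values turn by construction. Among the 15 carriers given with full statistics, the sign turned without diabetic replicates 1 and 2 for Slc25a11 (0.19), Slc25a4 (0.16) and Slc25a46 (0.093), without Hlirag replicate 3 for Slc25a46 (0.062), with median centring for Slc25a19l1 (-0.016) and with respiratory chain centring for Slc25a19l1 (-0.38), Slc25a33 (-0.034) and Slc25a39 (-0.075). For the arrays left out, the cause was not tested. Levels near background limit what can be said of Slc25a29, Slc25a41 and Slc25a52.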

Other observations

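The form of the ADP/ATP exchanger found in most tissues, Slc25a5, was read only by 2 probe sets that also name Slc25a6, so its level cannot be told apart from that of Slc25a6. Both probe sets were opposite in direction to Slc25a4. The brighter one had log2 levels of 9.81, 10.30 and 9.90 in the Hlirag group and 9.84, 9.12 and 9.40 in the diabetic group, a difference of 0.55 (SE 0.28, unadjusted p = 0.0864, limma). The other had 7.89, 8.53 and 8.40 in the Hlirag group and 7.89, 7.43 and 7.42 in the diabetic group, a difference of 0.69 (SE 0.27, unadjusted p = 0.0375, adjusted p = 0.812, limma). In both, replicate 1 of the groups was nearly equal, and Hlirag replicates 2 and 3 were above all diabetic arrays. A second, dimmer probe set of Slc25a4 had 5.41, 4.72 and 4.91 in the Hlirag group and 6.07, 5.83 and 5.52 in the diabetic group, a difference of -0.79 (SE 0.27, unadjusted p = 0.0205, limma), in the direction of the brighter one. It met the criterion without overlap, but only diabetic replicates 1 and 2 lay above background.

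Of 7 measured genes listed with the calcium uniporter, which lets calcium into the matrix, none met the criterion, against 3.78% of all genes. A log2 fold change below 0 was seen in 6 of the 7, where 50.2% of all genes were above 0. Mcu, the pore, differed by -0.57 (SE 0.30, unadjusted p = 0.0994, limma). Letm1 and Slc8b1, which are in the list but are not subunits of the uniporter, differed by 0.55 and -0.15. The outer membrane channels Vdac1, Vdac2 and Vdac3 differed by -0.013, -0.12 and 0.0090. Of the 8 genes that import newly made carriers, such as Tomm70 (-0.38) and Timm22 (-0.17), none met the criterion. Mpc1, a subunit of the pyruvate carrier, differed by 0.62 (SE 0.31, unadjusted p = 0.0815, limma). Sfxn1, which carries serine, was lower on every Hlirag array, at 7.59, 7.28 and 6.40, than on every diabetic array, at 7.77, 7.64 and 7.98, and its difference of -0.71 (SE 0.33, unadjusted p = 0.0676, limma) did not meet the criterion.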
